A study of Mus musculus with 10 samples.

Results

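The interactions described here are pairs of 1 Mb bins on different autosomes that the deposited list of significant contacts gave for mouse naive B cells and the matching list for plasma cells did not. There were 35465 such pairs, each counted once, among 51456 pairs between autosomes in the naive list and 84839 in either list. They were chosen on measured contacts, so their reads in the naive and the plasma map describe the choice and were not tested. Naive B cells are resting B cells that have not met antigen, and plasma cells are the antibody-secreting cells they become. The contacts come from TCC, a variant of Hi-C in which crosslinked DNA is cut, tethered to a solid surface, ligated there and sequenced as read pairs. The naive cells for TCC were WT C57BL/6 spleen cells purified with beads against CD23. The plasma cells for TCC came from Blimp-GFP mice on C57BL/6. Their source label says they were sorted ex vivo, while their protocol describes CD23+ spleen cells stimulated for 3 days with 10 µg/ml LPS and then sorted for GFP. Genotype, culture and cell type therefore cannot be told apart between these maps. ATAC-seq, which marks open chromatin with a transposase, used 50000 sorted cells of each kind from WT C57BL/6 mice, CD23+ IgD+ spleen cells and B220- bone marrow plasma cells. There was a lone library of each kind for either cell type, so no value here could be checked against replicates, and intervals cover counting error only. In all, 6 of the 10 samples were used.

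Chromosomes occupy territories in the nucleus, and contacts between chromosomes are sparse and spread over many partners. Active, gene-rich chromatin (the A compartment) and inactive chromatin (the B compartment) each tend to contact their own kind, also across chromosomes. Mouse chromosomes carry their centromere at one end, and ribosomal RNA genes on several chromosomes gather at nucleoli. B cell identity is kept by transcription factors such as Pax5, Ebf1 and Bach2, which plasma cells switch off when Blimp-1 (Prdm1), Irf4 and Xbp1 take over.

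The naive-only pairs were mostly moderate contacts that the plasma map held at a lower level, not contacts that it lacked. They made up 68.9% of the naive list (exact binomial interval 68.5 to 69.3%), and 15991 pairs were in both lists. The plasma list alone held 33383 of its 49374 pairs, so the split was of like size in both directions. The lists had 2229 of 2482 autosomal bins in common, which allow 2347756 possible pairs. Of these 1.5% were naive-only, 0.681% were in both lists and 1.41% were plasma-only. In the naive map the members had between 6 and 97 read pairs with a median of 16. Their reads over expected, the observed read pairs divided by those that the authors' background model gives for these bins, ranged from 2.51 to 13.4 with a median of 3.46. In the plasma map the median was 6 read pairs and 1.77 times expected. Pairs in both lists had a median of 4.14 times expected in the naive map and 4.03 in the plasma map.

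Of 35173 members whose bins were both in the plasma list, 18.5% lay below expectation in the plasma map, 41.8% lay between 1 and 2 times expected and 39.7% were at 2 times expected or more. Only 675 had no plasma read pair. At a pseudocount of 0.5 read pairs, 50.8% of the members were at least 2 times higher in naive B cells, beside 22.6% of all possible pairs, a contrast that the choice of members used. The other 292 members had a bin that was absent from the plasma list. The deposited lists hold pairs with a p-value of at most 0.001 and a Z-score of at least 1. In the plasma map 5053 members failed the p-value limit alone and 30117 failed both limits. The limits fell at different levels in the 2 libraries: at the median expectation of the members a naive pair was listed from 14 read pairs (2.88 times expected) and a plasma pair from 12 read pairs (3.07 times expected). The naive map held 8579685 read pairs between autosomes and the plasma map 7188926. The part that depth played in the lists was not tested.

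**Figure D1:**
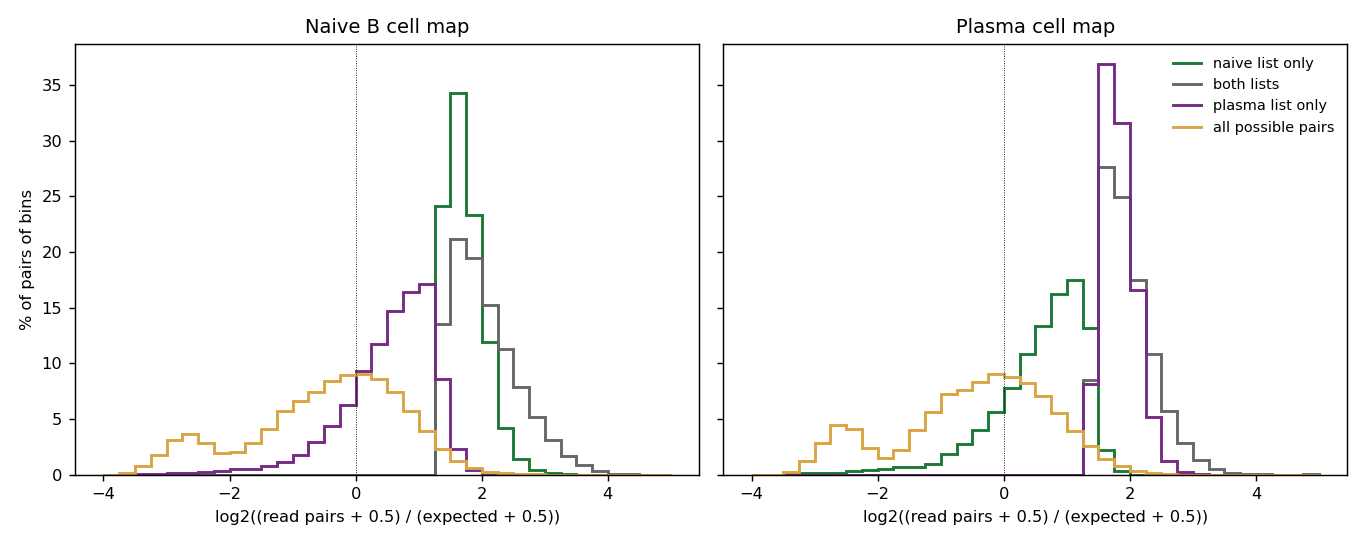
Distribution of log2 reads over expected (0.5 added to read pairs and to expected reads) in the naive map, left, and the plasma map, right, for pairs in the naive list only, in both lists, in the plasma list only and for all 2347756 possible pairs; the vertical axis is the percentage of pairs per class of 0.25. The naive-only pairs end at the list limit in the plasma map and lie mostly right of 0 there, between all possible pairs and the listed ones.

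Pairs at the edge of the list rested on few reads. Of the 3 naive-only pairs with the highest p-values, chr4:133000001-134000000 with chr8:109000001-110000000 had 14 naive read pairs (2.69 times expected) and 10 plasma read pairs (2.58 times expected). The pair of chr14:26000001-27000000 with chr16:91000001-92000000 had 14 and 7 read pairs, 2.69 and 1.80 times expected. The pair of chr1:17000001-18000000 with chr19:35000001-36000000 had 8 and 3 read pairs, 4.06 and 1.61 times expected. The intervals of all 3 ratios included 1, from 0.431 to 2.63 for the first and from 0.605 to 14.8 for the last. Just outside, chr2:17000001-18000000 with chr10:6000001-7000000 had 11 read pairs in each map, 3.15 times expected in naive and 3.38 in plasma cells, and was listed for plasma cells only. The other two pairs there had 12 read pairs in each map (chr7:134000001-135000000 with chr10:62000001-63000000) and 15 naive and 13 plasma read pairs (chr13:41000001-42000000 with chr16:10000001-11000000). These 3 pairs had ratios of 0.834 to 0.932 between the maps, naive over plasma, and the 3 pairs just inside had ratios of 1.04 to 2.52. The pairs outside were taken from the plasma list and the pairs inside were absent from it, so this difference follows from the choice. Where a naive pair also counted as shared if the plasma list had a pair within 1 bin on either side, 20443 pairs (39.7% of the naive list) remained naive-only. Among naive pairs with at least 20 read pairs, 45.8% were naive-only.

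The strongest members, by contrast, stood far above the plasma map. The highest of all was chr1:38000001-39000000 with chr13:44000001-45000000, with 68 naive read pairs (13.4 times expected) and 7 plasma read pairs (1.61 times expected). The ratio of the 2 values was 8.29, with an exact interval of 3.81 to 21.4. Bin chr11:106000001-107000000, where Cd79b of the B cell receptor and Ern1 of the unfolded protein response lie, paired with chr19:5000001-6000000 at 90 against 12 read pairs (13.1 and 2.13 times expected). Bin chr11:100000001-101000000 paired with the same bin of chromosome 19 at 97 against 15 read pairs (12.6 and 2.52 times expected). Bin chr11:44000001-45000000, which holds Ebf1, paired with chr13:44000001-45000000 at 69 against 9 read pairs, 12.2 and 1.74 times expected, a ratio of 7.00 (3.48 to 15.96). Bin chr3:135000001-136000000 paired with chr10:117000001-118000000 at 40 against 8 read pairs, and chr3:136000001-137000000 with chr10:94000001-95000000 at 48 against 8. The pair of chr15:98000001-99000000 with chr19:4000001-5000000 had 87 against 13 read pairs, and chr3:88000001-89000000 with chr7:135000001-136000000 had 49 against 10. In each of these 8 pairs the interval of the ratio lay above 2, as the choice of the highest naive values favours.

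The 14 bins of these 8 pairs fell into 2 sets, a division made after the values were seen. The first set held the bins on chromosomes 1, 10 and 13, the neighbouring pair of bins on chromosome 3 and the Ebf1 bin. Of its 19 pairs on different chromosomes, 11 were naive-only, 3 were in both lists, 1 was plasma-only and 4 were in neither. Their median was 6.74 times expected in naive and 1.52 in plasma cells, and 18 of 19 were higher in naive B cells. The second set held the bins on chromosomes 7, 15 and 19, the remaining bin on chromosome 3 and the remaining bins on chromosome 11. Of its 19 pairs 8 were naive-only and 11 were in both lists, with medians of 7.69 in naive and 4.12 in plasma cells, and 19 of 19 were higher in naive B cells. Between the sets the medians were 1.55 (naive) and 2.20 (plasma) over 45 pairs, and 19 were higher in naive B cells. Since 4 of the 19 pairs of each set are the strongest pairs themselves, the naive excess within the sets follows in part from the choice. Without them 7 of 15 pairs of the first set were naive-only, with medians of 6.13 (naive) and 1.06 (plasma), and 4 of 15 of the second set, with medians of 6.89 and 4.57. Some of the pairs that remained lie next to those left out, so they are no independent check. Higher values within than between the sets also follow in part from a division made after the values were seen.

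Stretches of chromosome 10 were shared partners of the bins of Pax5, Ebf1 and Bach2 and of chr1:38000001-39000000. These stretches were also picked after their values were seen. Pax5 commits cells to the B lineage, Ebf1 acts with it from the early stages on, and Bach2 holds back the plasma cell program. Chromosome 10 was the top partner chromosome of all 4 bins, with 21 naive-only pairs for Pax5, 21 for Ebf1, 23 for Bach2 and 29 for the bin on chromosome 1. The 3 bins of chr10:116000001-119000000 were naive-only with each of the 4 bins, 12 of 12 pairs. With the Pax5 bin (chr4:44000001-45000000) that stretch had 96 naive and 14 plasma read pairs, 7.39 and 1.26 times expected. With the Bach2 bin (chr4:32000001-33000000) it had 84 and 15, or 6.32 and 1.33 times expected. The Ebf1 bin had 75 and 14 there (5.50 and 1.09 times expected), and the bin on chromosome 1 had 80 and 5 (6.54 and 0.466 times expected). In the 7 bins of chr10:92000001-99000000, 20 of 28 pairs with the 4 bins were naive-only, and the summed reads were 4.47 times expected in naive and 0.829 in plasma cells. None of the 40 pairs was in the plasma list. In the rest of chromosome 10 the same 4 bins were at 1.82 times expected in naive and 1.33 in plasma cells. Of 432 pairs there, 62 were naive-only, 24 in both lists and 7 plasma-only, beside 32 naive-only pairs in the stretches. Most naive-only pairs of the 4 bins with chromosome 10 thus lay outside the stretches. Those 108 bins had a median of 11 naive ATAC peaks and 49 of them were in A in naive B cells. The rest thus also differed from the stretches in open chromatin and compartment.

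The stretches were not poor in open chromatin in plasma cells: their 10 bins had a median of 26 naive and 32.5 plasma ATAC peaks, and 9 of 10 were in A in naive B cells. Partners on other chromosomes were shared too. With chromosome 10 left out, and over bins that could pair with both, 48 naive-only partners were common to the Ebf1 and Bach2 bins. They were among 120 of Ebf1 and made up 49.5% of the 97 of Bach2, beside 5.22% of all such bins that were naive-only partners of Bach2 and 6.46% of Ebf1. The Ebf1 and Pax5 bins had 43 in common, 35.8% and 34.7% of theirs, where 6.67% of all such bins were partners of Pax5. The bin on chromosome 1 shared 77 with the Ebf1 bin, 44.0% of its own and 63.6% of those of Ebf1. Of all such bins 9.56% were its partners and 6.61% those of Ebf1. The baseline of all bins differs from the partners: the naive-only partners of the 4 bins had medians of 24 to 25 naive ATAC peaks, against 10 over all bins. Whether other bins of like peak density share as many partners was not tested. With chromosome 10 included, the Ebf1 and Bach2 bins had 62 naive-only partners in common, 44.0% of those of Ebf1. Of all such bins 6.07% were naive-only partners of Bach2. They also shared 8 of their 38 and 58 plasma-only partners (21.1% and 13.8%, where 2.94% of all such bins were plasma-only partners of Bach2). On the same basis the bin on chromosome 1 shared 20.4% of its plasma-only partners with the Ebf1 bin, against 1.90% of all such bins. The Ebf1 bin shared 18.4% of its own with the Pax5 bin, against 2.99%. Sharing above the value for all bins was thus not particular to naive-only partners.

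Loci of the naive B cell program mostly lay in bins with more naive-only than plasma-only pairs. This held for 15 of 18 such bins in both lists, beside 52.4% of all 2229 bins (44.3% had more plasma-only pairs), 59.4% of A bins and 63.4% of bins rich in naive ATAC peaks. The loci were placed by their approximate position in mm9. Pax5 had 157 naive-only and 67 plasma-only pairs, and Ebf1 had 146 and 40. Klf2, which keeps lymphocytes quiescent, had 132 and 17. Bach2 had 124 and 65, and Cxcr5, the receptor that guides B cells to follicles, 118 and 44. Ikzf3, a factor of the Ikaros family, had 102 and 37. The transcription factor genes Ets1 (91 and 59), Foxo1 (84 and 61) and Bcl6 (51 and 26) lay lower, and Bcl2, which protects cells from apoptosis, had 27 and 4. The B cell surface genes Ms4a1 (109 and 73), Cd79a (81 and 48) and Cd22 (71 and 50) and the MHC class II genes (74 and 46) also had more naive-only pairs. The exceptions were Ciita, the activator of MHC class II genes, with 83 and 116, Ikzf1 with 53 and 90, and Fcer2a, which encodes CD23, with 90 and 105. The bin of Cd74 was not in the plasma list with another chromosome and was left out of the count.

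The bins of the plasma cell program were not the reverse of this. Of 10 bins 8 also had more naive-only pairs, with Prdm1 (39 naive-only and 65 plasma-only) and Irf4 (32 and 57) as the exceptions. The bin of Cd79b and Ern1, with 78 and 61, is in both tallies, and without it they were 14 of 17 and 7 of 9. Mzb1, a chaperone of immunoglobulin assembly, had 145 and 61 pairs, and Atf4 82 and 47. The most lopsided was Myc with 75 and 6, a growth regulator listed with the plasma cell program although its RNA was higher in the naive library, at 63.9 and 37.9 TPM (a length-corrected share of transcripts). Xbp1 had 83 and 68 and the chaperone gene Hspa5 77 and 74. Ell2 and Jchain had few of either, 10 and 6 for Ell2 and 3 and 2 for Jchain. Of the 8 bins of the immunoglobulin loci 2, an Igh and an Igk bin, were in neither list with another chromosome. The other 6 had more naive-only pairs, led by chr12:114000001-115000000 at the constant end of Igh with 164 and 41, and by Igl with 122 and 41. The remaining Igh bin had 21 and 5, and the Igk bins had 50 and 3, 27 and 7, and 5 and 1. All 6 had fewer total naive read pairs than the median bin (7482 to 28200, against 31082). In TPM, all 19 naive program loci were higher in the naive RNA library and 9 of 10 plasma program loci in the plasma library, Myc being the exception. Ebf1 was at 102 TPM in the naive and 20.0 in the plasma library, Klf2 at 163 and 10.1, and Prdm1 at 2.29 and 249. Bins with more naive-only pairs thus held genes that were higher in either library.

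**Figure D2:**
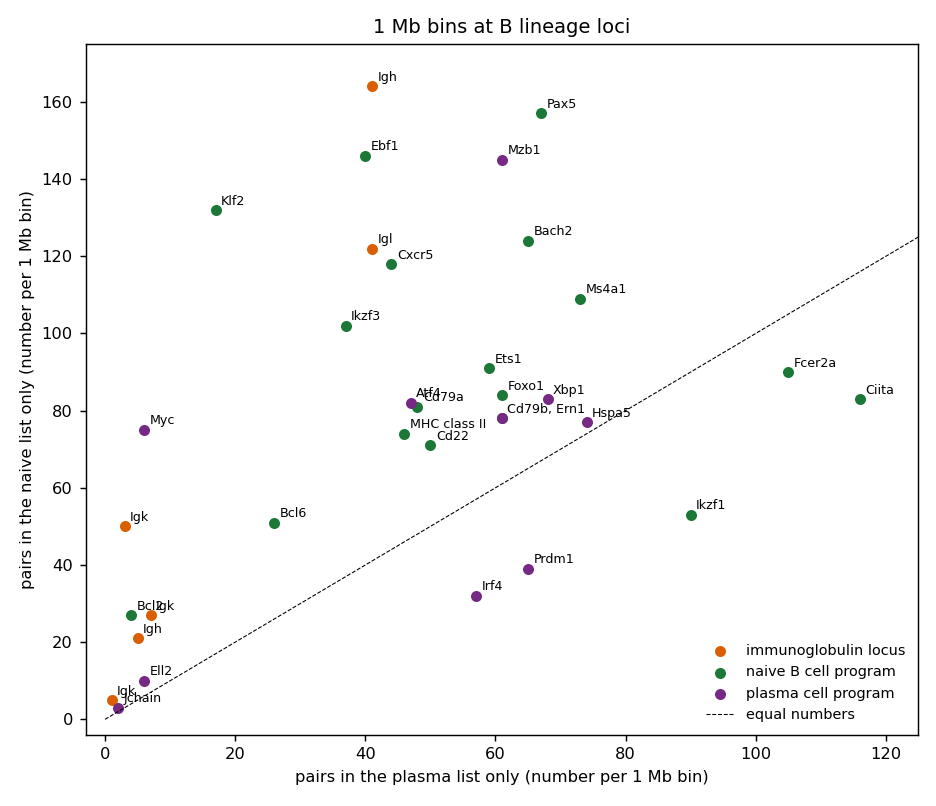
Number of pairs in the naive list only (vertical) against the number in the plasma list only (horizontal) for each 1 Mb bin at the named loci that was in both lists; green points are bins of the naive B cell program, purple points bins of the plasma cell program, orange points immunoglobulin loci, and the dashed line marks equal numbers. Pax5, Ebf1, Klf2 and Igh lie far above the line, and Ciita, Ikzf1, Fcer2a, Prdm1 and Irf4 lie below it.

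Pairs that joined these loci to each other were among the members. Of 505 possible pairs of their bins on different chromosomes, 78 (15.4%) were naive-only, 61 (12.1%) in both lists and 26 (5.15%) plasma-only. Over all possible pairs these shares were 1.5%, 0.681% and 1.41%. Over pairs of 2 bins with more than 16 naive ATAC peaks each they were 6.35%, 4.71% and 4.304%. The locus bins had medians of 31 (naive program), 20 (plasma program) and 20.5 (immunoglobulin loci) such peaks. Across the 78 the ratio of reads over expected, naive over plasma, ran from 1.06 for Cd79a with Atf4 (18 and 13 read pairs) to 7.37 for Ms4a1 with an Igk bin (8 and 1), with a median of 2.31. Its interval lay above 1 in 21 of them. Near the low end Ciita with Cxcr5 had 17 and 12 read pairs, a ratio of 1.07, and Ikzf3 with Hspa5 16 and 12, a ratio of 1.19. The following pairs are among those with the most naive reads over expected, picked after their values were seen. Cd79a, a signalling chain of the B cell receptor, and the MHC class II genes, whose products present antigen to T cells, had 30 naive and 9 plasma read pairs, 6.25 and 2.35 times expected, a ratio of 2.65 (1.23 to 6.36). Klf2 with Atf4 had 37 and 9, or 7.51 and 2.47 times expected. Ebf1 with Myc had 32 and 7, and Cd22, an inhibitory co-receptor, with the constant end of Igh had 28 and 4. Klf2 with Ms4a1, which encodes CD20, had 23 and 4. With so few plasma reads the intervals were wide, 1.86 to 20.8 for Cd22 with Igh and 1.56 to 18.1 for Klf2 with Ms4a1.

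Naive-only pairs were spread over nearly all bins but concentrated in few. Of the 2482 bins 2306 had at least 1, and the bins in both lists had a median of 17 with quartiles of 7 and 42. The 249 bins with most of them held 40.8% of all pair ends. The 10 leading bins had 169 to 221 each, with partners on all 18 other autosomes. The first was chr1:38000001-39000000 with 221, or 10.7% of its possible partners, against 62 plasma-only pairs. The neighbours chr13:54000001-55000000 and chr13:55000001-56000000 had 210 and 205, against 12 and 19 plasma-only, and their top partner was chromosome 11. They were followed by chr5:65000001-66000000 with 188, chr3:96000001-97000000 with 185, chr12:101000001-102000000 with 185 and chr18:34000001-35000000 with 183. The last 3 were chr5:66000001-67000000 with 177, chr16:31000001-32000000 with 172 and chr19:47000001-48000000 with 169. All 10 were in A, with 11 to 30 naive ATAC peaks. With plasma pairs within 1 bin counted as shared, 4 of these 10 bins stayed among the first 10.

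The bins with most naive-only pairs were largely those with most shared pairs. Of the 249 leading bins, 170 were also among the 249 with most pairs in both lists, and 34 were among the 249 with most plasma-only pairs. Such a set holds 249 of all 2482 bins, a share that 34 of 249 lies near and 170 of 249 far above. Across the 2229 bins the rank correlation (Spearman) of naive-only pairs was 0.75 with pairs in both lists and 0.52 with plasma-only pairs. It was 0.42 with the total naive read pairs of the bin. These bins share the same libraries and depth, so the values are descriptions.

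Short chromosomes had the highest shares of possible pairs that were naive-only. Chromosome 19, the shortest autosome, led with 3.80%, followed by chromosome 15 with 2.33%, 16 with 2.17%, 11 with 2.11% and 17 with 2.00%. Chromosome 1 was lowest with 0.879%, next to chromosome 6 with 0.918%. Over the 19 autosomes the rank correlation with length was -0.84 for naive-only pairs, -0.27 for pairs in both lists and -0.08 for plasma-only pairs, with points that share 1 library per map. It was 0.05 between the naive-only share and ATAC peaks per bin.

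Among 171 pairs of chromosomes, chromosomes 15 and 19 stood first with 772 naive-only pairs, 13.0% of the possible ones. Their summed reads were 1.78 times expected in naive and 1.31 in plasma cells. Next were 11 with 19 at 8.69%, 16 with 19 at 7.13%, 18 with 19 at 6.45% and 12 with 19 at 6.25%. The lowest were 2 with 18 at 0.560%, 2 with 6 at 0.590% and 1 with 8 at 0.591%. The median was 1.32% for naive-only and 1.35% for plasma-only pairs, but the plasma-only share ranged only from 0.682% to 2.47%.

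**Figure D3:**
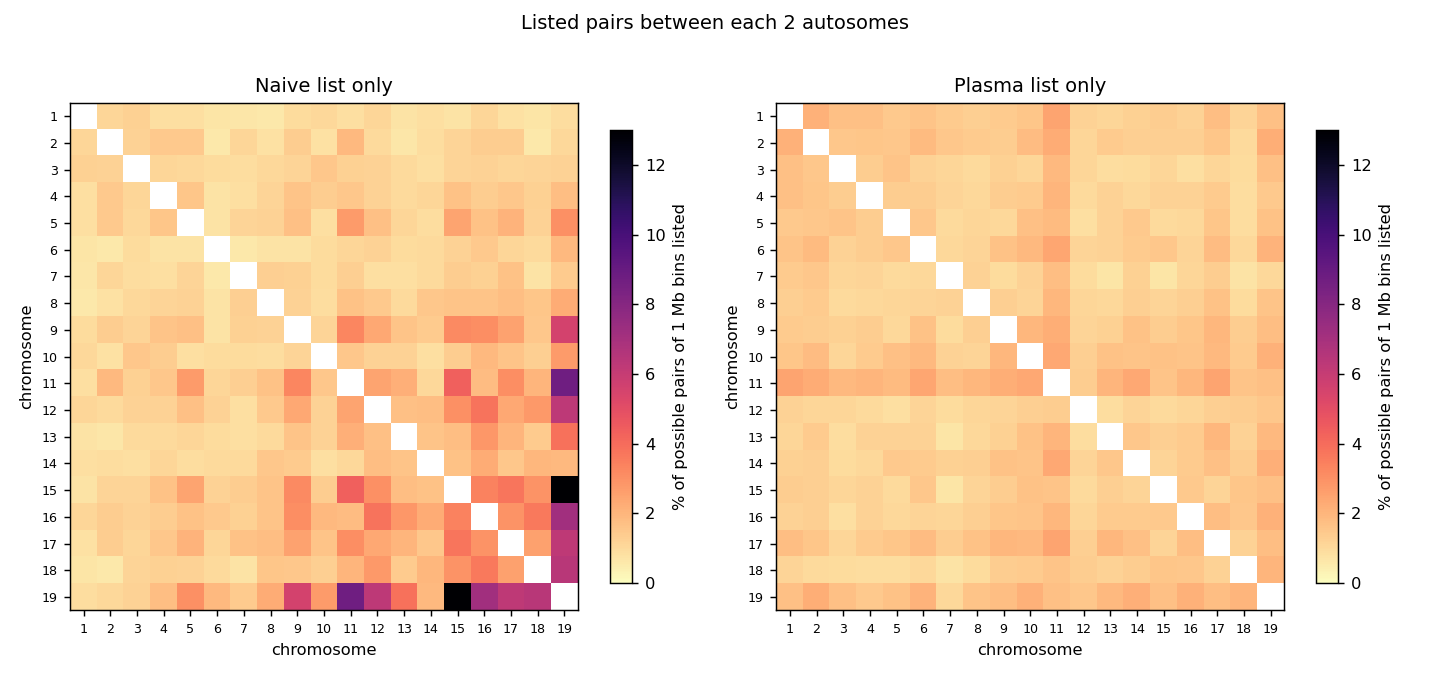
Percentage of possible pairs of 1 Mb bins that were in the naive list only (left) or in the plasma list only (right) for each of the 171 pairs of autosomes, on the same colour scale from 0 to 13%. Naive-only pairs concentrate among chromosomes 9, 11, 12 and 15 to 19, and the plasma-only panel is nearly even.

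Chromosomes 12, 15, 16, 18 and 19, which are known to carry ribosomal RNA gene arrays in C57BL/6 mice, had many naive-only pairs with each other. This grouping was made after the values were seen. Among them 3802 of 80978 possible pairs were naive-only, 4.68%. The share was 1.74% among 6 other chromosomes (9, 10, 11, 13, 14 and 17) and 1.18% among all 14 others. Plasma-only pairs were not more frequent there, at 1.45%, 1.90% and 1.49% in the same order. The summed reads were 1.30 times expected in naive and 1.16 in plasma cells. Among the 6 they were 1.06 and 1.04 times expected, and among the 14 they were 0.972 and 0.980. Pairs in both lists made up 1.08%, 0.801% and 0.657% of possible pairs, in the same order. Reads were thus higher among these 5 chromosomes in the plasma map too. Without chromosome 19 the naive-only share was 3.26%. The 5 chromosomes are 62 to 122 Mb long and the 6 others 96 to 130 Mb, so the 6 do not match them in length. The naive-only share fell with length over all autosomes, and the part that length played in this grouping was not tested. Of the members among these chromosomes, 55.7% had both ends in A and 27.5% both in B, with a median of 13 ATAC peaks per end. Among the 14 others the values were 77.6%, 15.5% and 20, and among the 6 others named above 73.4%, 17.6% and 19. Without chromosome 19 the values were 63.3%, 27.6% and 14. The share with both ends in A then lay nearer to the others, while the share with both in B hardly changed.

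Bin chr17:39000001-40000000 was rank 14 with 160 naive-only pairs and was the only B bin among the first 20. It was singled out after its values were seen. It held 2 naive ATAC peaks and 1 plasma peak, and its naive total of 18323 read pairs was below the median of 31082. Of its naive-only pairs 119 (74.4%) lay on the same 5 chromosomes, beside 19 of its 97 plasma-only pairs (19.6%). Of its 173 pairs in both lists 144 lay there. Its reads were 3.504 to 5.25 times expected with each of the 5 chromosomes in naive B cells and 3.41 to 4.38 in plasma cells, and 0.989 to 1.79 and 1.33 to 2.12 with each of the others. The higher reads with these chromosomes were thus present in both maps. No mm9 annotation was used, so which sequences of the bin gave these reads was not tested.

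Along the chromosomes, naive-only pairs joined positions less alike than plasma-only pairs did. The position of a bin was measured from the centromere end, where the coordinates start. The median difference between the positions of the 2 ends was 35 Mb for naive-only pairs, 29 Mb for pairs in both lists, 17 Mb for plasma-only pairs and 43 Mb for all possible pairs. Of bins that differed by less than 10 Mb 1.80% of possible pairs were naive-only and 3.57% plasma-only. At differences of 60 to 70 Mb the shares were 1.35% and 0.498%, and at 100 to 110 Mb they were 1.04% and 0.150%. Among naive-only pairs 25.4% differed by over 60 Mb, against 6.34% of plasma-only pairs.

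The same held at the ends, taken as the first and last 12 Mb. A centromere end with a telomere end made 614 naive-only pairs (1.73%, with 1.39% of possible pairs of this kind), 48 pairs in both lists and 30 plasma-only pairs. Of these 614 pairs 370 involved chromosome 19, and 89 joined chromosomes 15 and 19. Centromere ends with each other made 477 naive-only pairs and 2107 plasma-only pairs, 3.99% and 17.6% of the possible ones. Telomere ends with each other made 518 and 3067, or 2.32% and 13.7%. Where a centromere end could meet a telomere end, 1.88% of possible pairs were naive-only and 0.0918% plasma-only. The naive-only value depended on the length taken for an end: it was 2.24% with ends of 6 Mb and 1.43% with ends of 20 Mb, below the overall share of 1.5%. The plasma-only value was 0.113% and 0.0908%.

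**Figure D4:**
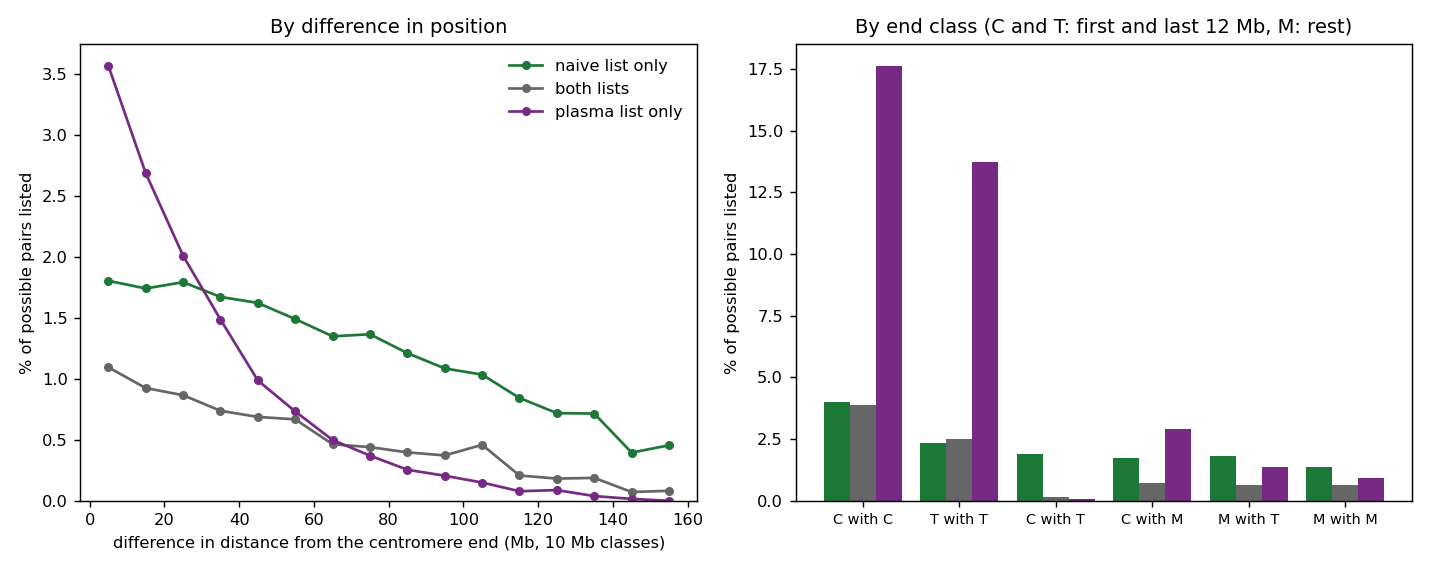
Percentage of possible pairs listed, left by the difference in distance from the centromere end in classes of 10 Mb and right by end class, where C is the first 12 Mb, T the last 12 Mb and M the rest of a chromosome. The naive-only line falls slowly from 1.80%, the plasma-only line falls steeply from 3.57%, and for C with T the naive-only bar stands at 1.88% and the plasma-only bar at 0.0918%.

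Many naive-only pairs had no neighbouring member. Pairs that touched on the grid of bins were joined to patches, and 13.7% of the members lay in patches of 10 or more, against 34.3% of pairs in both lists. In all, 43.7% of the members stood alone, against 23.6% of pairs in both lists and 44.2% of plasma-only pairs. The largest patch had 130 pairs and joined chr15:3000001-14000000, next to the centromere, with chr19:12000001-41000000. It held 2362 naive and 973 plasma read pairs, 3.74 and 1.92 times expected. Its chromosome 19 ends were in A in only 23.8% of pairs, with a median of 9 naive ATAC peaks. The next 4 patches were of another kind, with 97.4% to 100.0% of ends in A: 89 pairs of chr5:135000001-146000000 with chr17:24000001-37000000, a stretch that includes the MHC; 77 of chr11:94000001-108000000 with the same stretch; 76 of chr2:24000001-35000000 with chr11:93000001-109000000; and 70 of chr11:94000001-108000000 with chr15:75000001-86000000. In these 4 the reads were 3.78 to 4.19 times expected in naive and 1.66 to 1.77 in plasma cells.

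The ends of the members were denser in open chromatin than those of all possible pairs, with a median between those of shared and plasma-only pairs. The median number of naive ATAC peaks per pair end was 18 for naive-only pairs, 24 for pairs in both lists, 14 for plasma-only pairs and 10 for all possible pairs. These medians weight a bin by its number of pairs. With each bin counted once the medians were 10, 14, 10 and 10, since 2224 of the 2229 bins had a naive-only pair. Plasma peaks per pair end gave the same order as naive ones, with 21, 29, 15 and 10. Bins were called rich with over 16 naive peaks, poor with at most 5 and middle between. Of possible pairs of 2 rich bins 6.35% were naive-only and 4.304% plasma-only. For 2 poor bins the shares were 1.73% and 2.09%, and for a poor with a rich bin they were 0.162% and 0.233%. Rich with rich made up 41.0% of the members, poor with poor 14.3% and poor with rich 2.36%.

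**Figure D5:**
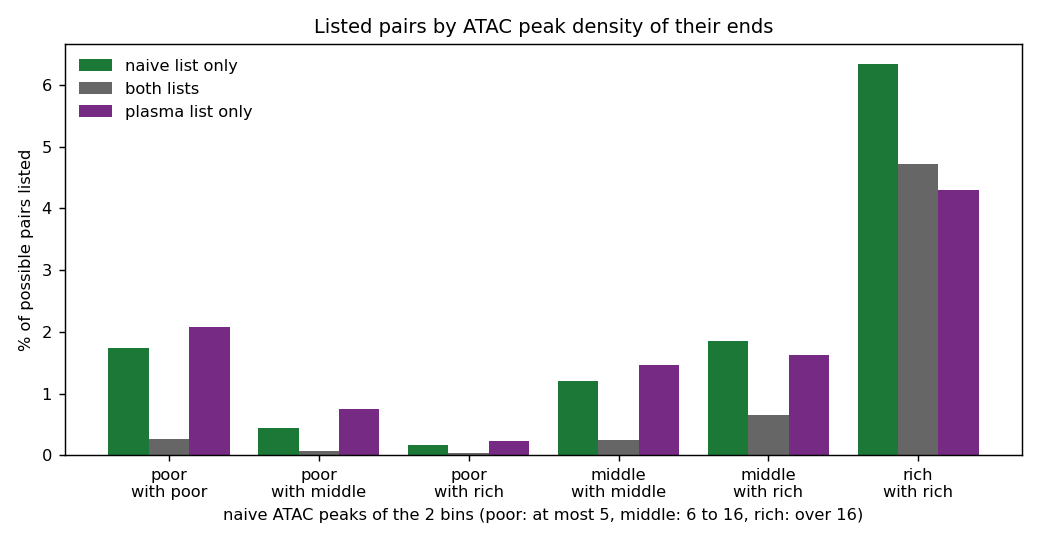
Percentage of possible pairs listed by the naive ATAC peaks of the 2 bins (poor at most 5, middle 6 to 16, rich over 16) for pairs in the naive list only, both lists and the plasma list only. Pairs of rich bins reach 6.35% naive-only, and pairs of a poor with a rich bin are at the bottom in all 3 classes.

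Compartments, taken from contacts within chromosomes, showed the same like-with-like arrangement. Both ends were in A in 71.4% of naive-only pairs, 90.6% of pairs in both lists, 54.5% of plasma-only pairs and 26.4% of all possible pairs. Both were in B in 19.7%, 6.35%, 28.4% and 23.6%, and A met B in 8.92%, 3.05%, 17.1% and 50.0%. Bins with more naive-only than plasma-only pairs had 16135 naive and 16927 plasma peaks, a ratio of 1.05, and bins with more plasma-only pairs had 10614 and 10785, a ratio of 1.02. Over the 2229 bins the rank correlation between the excess of naive-only pairs and the log2 ratio of plasma over naive peaks was 0.09. The deposited lists give peak scores but not the depth of the ATAC libraries.

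The RNA libraries were used to check the cell labels, although they were not made from the TCC cells. Both came from WT C57BL/6 mice. The naive library was made from CD23+ IgD+ spleen cells. The labels of the plasma library conflict: its source label gives cells activated in vitro, while its extraction protocol describes CD138+ B220- cells sorted from bone marrow. The 4 naive B markers used (Ighd was not matched) summed to 5302 TPM in the naive and 1418 in the plasma library, and the 6 plasma markers to 1019 and 7995, with Sdc1 as an exception at 11.1 and 5.38. Markers of T and NK cells (5 genes) summed to 82.0 and 2.57, those of myeloid cells (4 genes) to 127 and 0.718 and those of erythroid cells (3 genes) to 65.7 and 0. No naive marker was at 0, while 3 T and NK markers and all 3 erythroid markers were listed at 0 in plasma cells. Whether other cell types in the TCC samples bear on the naive-only pairs was not tested.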

How the data were processed

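TCC, ATAC-seq and RNA-seq had 1 library per cell type. H3K36me3 and H3K4me2 samples were not analysed here. Per the submitters' processing notes the build was mm9 and the tools included HOMER, Bowtie, TopHat, Picard, MACS 1.4 and kallisto. Their settings are unknown here. Per the file headers, the deposited lists hold, for bins of 1 Mb, counts of read pairs and expected counts, the Z-score, the natural log of the p-value and its FDR. The 500 kb maps are signal that the authors balanced. ATAC peaks carry the authors' peak score, and the RNA files give the authors' kallisto expected counts (37.0 M and 43.5 M) and TPM.

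Pairs listed in both orders were counted once. Expected reads between autosomes were a product of 1 value per bin, with a relative error under 7.84e-07, so they were known for unlisted pairs. Read pairs of unlisted pairs were recovered from the balanced maps: 99.96% and 99.99% of entries lay within 0.05 of a whole number, and 99.998% and 100% of listed pairs had the same reads. The limits of p at most 0.001 and Z at least 1 were read from the lists and recovered 51449 of 51456 naive and 49357 of 49374 plasma pairs, with 79 and 32 more. Compartments were the first component of each chromosome's correlation map, signed by ATAC peaks. ATAC peaks were placed by their midpoint. TPM was summed per gene through gene IDs, which matched a symbol for 57889 of 61112 transcripts. There was no test: shares have exact (Clopper-Pearson) 95% intervals for counting error only. Python 3.11.15, numpy 2.4.6, pandas and SciPy were used, and the functions were tested on simulated data.

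Named were the 10 bins with most pairs, the 5 highest and 3 lowest pairs of chromosomes, the 8 strongest pairs with at least 20 read pairs, the 5 with the lowest p-values (all among those 8), 3 inside and 3 outside the limit, the 5 largest patches, and the loci of fixed lists, of which 1 is not reported here. Members and lists were chosen with earlier results of these data known. No mm9 annotation was used, so gene content is given for approximate loci only.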

Additional observations from a re-analysis of the deposited data

How the results depend on the processing

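The naive-only share of the naive list, 68.9%, was 62.6% with the naive list limited to an FDR of 0.01, 39.7% with plasma pairs within 1 bin counted as shared, 68.1% without bins of low total reads, 45.8% among pairs with at least 20 read pairs, 52.7% where the naive value also had to be 1.5 times the plasma value, and 68.1% with lists of the same length. The share of centromere with telomere ends, 1.73%, was 0.336% with ends of 6 Mb and 4.31% with ends of 20 Mb, where all possible pairs had 0.227% and 4.55%. It was 2.44% with plasma pairs within 1 bin counted as shared and 2.07% at 1.5 times. The median of 18 naive ATAC peaks per end was 14 for peaks with a score of at least 100, 10 with each bin once, 21 with plasma peaks, 20 at an FDR of 0.01, and 32.2 kb when measured as length covered. The median log2 ratio of naive over plasma, 1.01, was 1.09 with balanced contacts, 1.09 with at least 20 read pairs and 1.00 without low bins. Of the 10 leading bins, 4 stayed with plasma pairs within 1 bin counted as shared. Pairs with both ends in A were 69.0% with the plasma component. The share among chromosomes 12, 15, 16, 18 and 19, 4.68%, was 3.26% without chromosome 19, an alternative chosen after seeing the data. Leaving out the strongest pairs, chromosome 10 or the bin of Cd79b and Ern1, given beside their results, was also chosen after seeing the data. Of 25 alternatives, 4 stayed within the interval or limit of the value first given. Except where fewer pairs or another measure entered by construction, the cause was not tested. No paired analysis was possible because each group had 1 library. Depth limits the lists: the named pairs just inside and just outside the naive limits rest on 8 to 15 naive read pairs.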
